A study of Mus musculus with 16 samples.

Results

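The genes described here are 10 of the 36950 rows of a single-cell table from the mouse left ventricle, chosen by name as matrix metalloproteinases, the related ADAMTS proteases and their tissue inhibitors. They are the inhibitors Timp1, Timp2, Timp3 and Timp4, the metalloproteinases Mmp2, Mmp3, Mmp9 and Mmp14, and the proteases Adamts1 and Adamts5. All 10 have a row in the table and all 10 passed the filter on low counts in each of the 5 cell types fitted. All mice were male. Transverse aortic constriction (TAC) narrows the aorta and so loads the left ventricle with pressure, and the labels sort the mice by weeks into 5 stages. The stage 0w has 2 mice, 2w has 2, 5w has 7, 8w has 3 and 11w has 2. Strain and age are not in the labels, nor is it stated whether the 0w animals underwent surgery. Below, early stands for 0w and 2w and late for 8w and 11w. The authors assigned 5656 cells to CM (cardiomyocytes), 1858 to EC (endothelial cells), 1775 to FB (fibroblasts), 1413 to MP (macrophages), 606 to T (T cells) and 181 to GN, a name that the labels do not explain, and they split them into 47 subclusters.

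Matrix metalloproteinases are zinc-dependent enzymes that cut collagens and other proteins of the extracellular matrix. They are made as inactive proforms and are held in check by tissue inhibitors of metalloproteinases, the TIMPs, which bind the active site. Mmp2 and Mmp9 encode gelatinases, Mmp3 encodes stromelysin-1, and Mmp14 encodes a membrane-anchored enzyme that activates pro-MMP2 together with TIMP2. ADAMTS1 and ADAMTS5 are secreted proteases that cut proteoglycans such as versican, and TIMP3, which is bound to the matrix, inhibits enzymes of this group too. In the loaded heart these enzymes and inhibitors are known for their part in turning over the collagen network around the myocytes.

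For Timp1, Mmp3 and Timp4, on whose levels many of the stage comparisons below turn, the 100 bases before the gene start are shown 5′ to 3′, from RefSeq (GRCm38.p6). The table held 7 of the 10 members, without Mmp2, Mmp9 and Adamts5. Capitals mark motif matches, searched on both strands. The AP-1 motif was searched as TGACTCA. The letters of the TATA box were TATAAA, and for the GC box the search used GGGCGG. No matches overlap one another in the 3 sequences.
Timp1, chrX:20870066-20870165, plus strand: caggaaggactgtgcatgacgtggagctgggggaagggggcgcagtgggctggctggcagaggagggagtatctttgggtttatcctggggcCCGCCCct
Mmp3, chr9:7445722-7445821, plus strand: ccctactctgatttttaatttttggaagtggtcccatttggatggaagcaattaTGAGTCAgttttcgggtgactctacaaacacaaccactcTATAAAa
Timp4, chr6:115252206-115252305, minus strand: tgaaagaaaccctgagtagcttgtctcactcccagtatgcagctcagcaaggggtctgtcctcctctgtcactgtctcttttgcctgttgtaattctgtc
Mmp3 holds 1 AP-1 match, which 1.88% of the 32851 promoters of this length hold, and 1 TATA match, held by 5.56%. Timp1 holds 1 GC box match, held by 24.7%, and Timp4 holds no match to these letters in this window. The matches are a description of letters, not of binding.

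In the GENCODE M21 annotation of GRCm38, Timp1 (X, 20870166 to 20874735, plus strand), Timp3 (10, 86300372 to 86349506, plus strand) and Timp4 (6, 115241892 to 115252205, minus strand) each overlap a synapsin gene on the opposite strand, Syn1, Syn3 and Syn2. Exons overlap for Timp3 and Timp4 but not for Timp1. Where counting does not use strand, reads of the shared exons cannot be told apart. Syn2 had 2370.0 UMIs in all, against 32467 for Timp4, and Syn3 had 118, against 26291 for Timp3. Mmp9 (2, 164940780 to 164955850), Mmp2 (8, 92827291 to 92853420), Mmp3 (9, 7445822 to 7455975) and Mmp14 (14, 54431612 to 54445364), all on the plus strand, overlap no other gene, and Timp2 (11, 118301069 to 118355740, minus strand) overlaps Cep295nl on its own strand without sharing exons.

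Levels are given in CPM, UMIs of a gene per 1000000 UMIs of all nuclear genes, per mouse and cell type, for mice with at least 10 cells of the type, and are not corrected for gene length. A UMI tags 1 captured RNA molecule. The cells came from 12 plates, lettered A to L in order of stage, and all 11492 cell names are unique. Plates are nested in stage apart from plate E, which holds both 5w replicate 1 and 8w replicate 1, so plate and stage cannot otherwise be told apart. In FB, EC, CM and MP those 2 mice deviate from their stage means together, with a correlation across genes from 0.126 in FB to 0.208 in MP, and values without them stand beside several results below. On plates G, H and K, which hold 5w replicates 4 to 7 and part of the cells of both 11w mice, the ratio of nuclear totals to the UMI numbers given by the authors had medians of 0.545, 0.805 and 0.481, against 1 on the other plates. Defining markers stood highest in the types they define. Summed FB markers had a median of 18956 CPM in FB over mice and at most 1779 in any other type, EC markers 6510 in EC and at most 2010 elsewhere, and neutrophil markers 8478 in GN and at most 16.4 elsewhere. CM markers had 35157 in CM, but also 2573 in FB, 4953 in EC, 10328 in MP, 5942 in T and 8505 in GN. In T the T markers had medians of 1402 early, 2917 at 5w and 612 late. B markers in T had medians of 288, 33.1 and 574, and their part in the T values below was not tested.

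Fibroblasts contributed the largest share of the UMIs of 7 of the 10 genes, and EC that of Timp3, Timp4 and Mmp9. Of all UMIs of each gene, FB contributed 79.9% for Mmp3, 74.7% for Timp1, 67.8% for Adamts5, 67.0% for Mmp2, 51.6% for Timp2 and 48.3% for Mmp14, although FB made up 1775 of the 11492 cells. EC contributed 72.1% of Timp4 and 48.2% of Timp3. The shares of Mmp9 were 30.8% in EC, 25.8% in CM and 17.5% in FB. Of its 21846 UMIs in EC, 13724 came from plate B, which held 708 of the 1858 EC. On that plate Mmp9 averaged 19.4 UMIs per cell in EC, 19.3 in FB and 24.3 in CM. Adamts1 was divided among FB with 35.2%, EC with 26.4% and CM with 25.5%. The cell types were made by the authors from these cells, so these levels are a description without a test. With every cell thinned to 2000 nuclear UMIs, a UMI of Timp1 was found in 18.1% of FB (95% exact binomial interval 16.3 to 20.1%, counting error only) and in 2.08 to 5.25% of the other types. The same share for Timp4 was 20.8% of EC and at most 4.22% of cells of any other type, and for Mmp2 it was 33.6% of FB and at most 5.19% of any other type. Before thinning, 30.6% of FB held a UMI of Timp1, 61.1% one of Mmp2, and 38.4% of EC one of Timp4. Single fibroblasts held UMIs of 4 of the 10 members most often (22.4% of FB), and 2.03% of them held none.

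**Figure D1:**
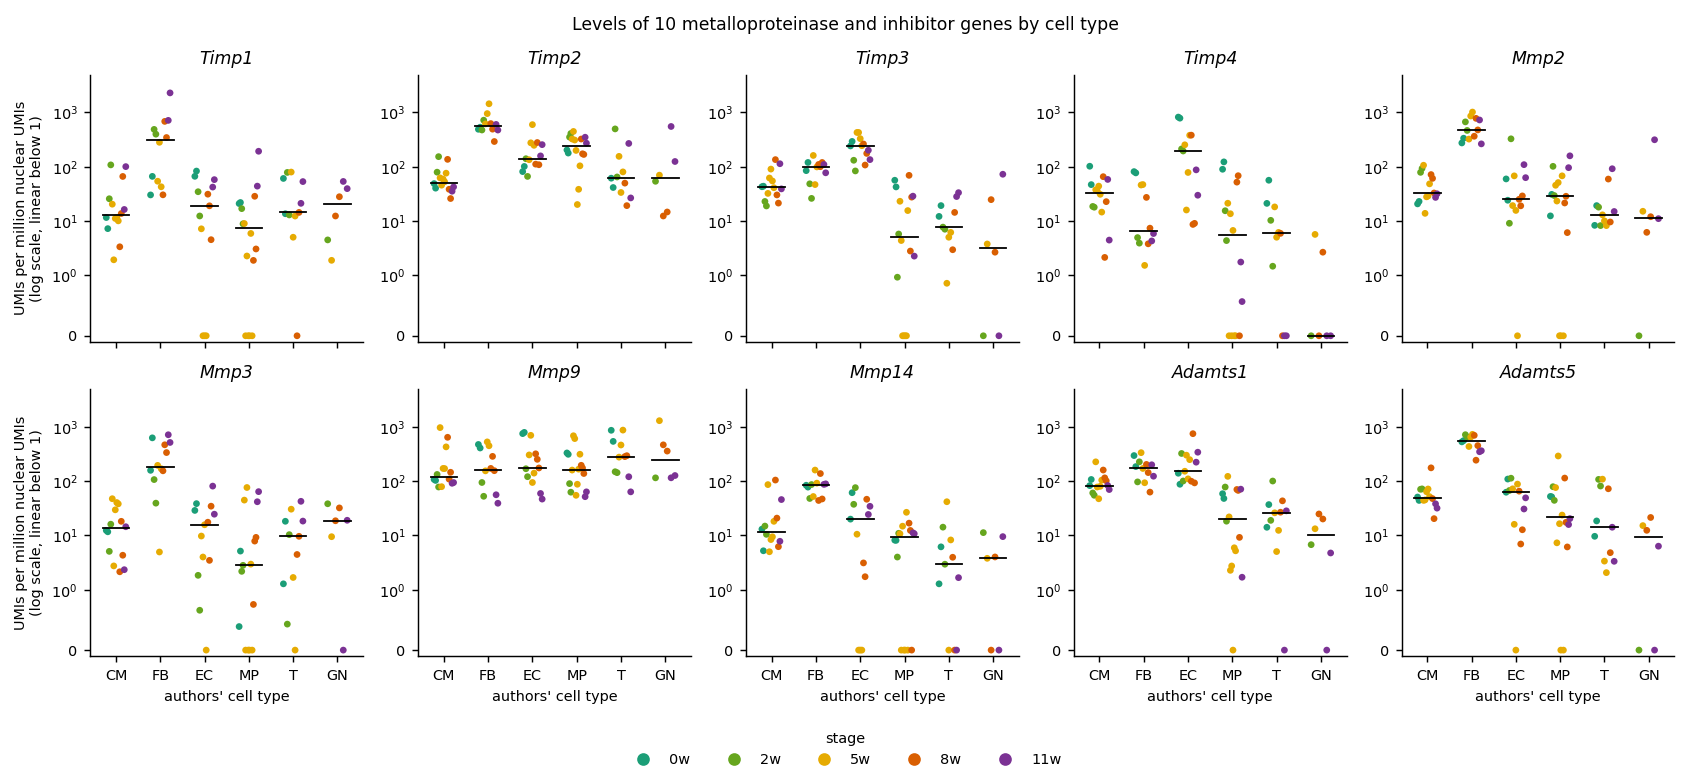
Level of each of the 10 genes (CPM, log scale that is linear below 1) by authors' cell type. Points are mice with at least 10 cells of the type, coloured by stage, and bars are medians over mice. Timp1, Mmp2, Mmp3, Mmp14, Adamts5 and Timp2 have their highest median in FB, Timp3 and Timp4 in EC, and the medians of Mmp9 lie between 121 and 283 in all 6 types.

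The order of the levels over mice separates some types from their neighbours and not others. The lowest FB mouse of Adamts5, at 243, lay above the highest CM mouse, at 176, and above the highest EC mouse, at 113. One MP mouse reached 291. For Mmp2 the lowest FB mouse (264) likewise exceeded every CM, MP and T mouse, the highest of which was an MP mouse at 159, while 1 EC mouse reached 328 and 1 GN mouse 315. Timp2 ran from 292 to 1448 in FB and from 20.2 to 448 in MP, so these neighbours in the order overlap. Timp3 ran from 84.0 to 429 in EC and from 26.2 to 162 in FB, which also overlap. Adamts1 had a median of 178 in FB and 152 in EC, with ranges of 62.8 to 334 and 87.6 to 748, and these types overlap over most of their spread.

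Differences between stages were tested on summed counts per mouse with edgeR's quasi-likelihood test, with p-values adjusted over all genes (Benjamini-Hochberg) and a threshold of 0.05. In FB 0 of the 10 members passed in any of the 3 contrasts, and no other gene did, so that the share called was 0% of 15400 genes for late against early, 0% for 5w against early and 0% for late against 5w. At an unadjusted p under 0.05 there were 3, 0 and 4 members in these contrasts, beside 9.84, 12.2 and 9.85% of all genes. DESeq2 on the same sums called 0, 0 and 2 members, beside 250, 375 and 214 genes in all. In EC the members called were likewise 0 of 10 in each contrast, where the share of all genes called was 0%, and 3, 3 and 2 members had an unadjusted p under 0.05, beside 9.24, 10.8 and 10.4% of all genes. In MP 0 of 10 members passed in each contrast and 0% of all 13210 genes did. The unadjusted counts in MP were 0, 3 and 2 members, beside 6.34, 6.65 and 9.71% of all genes. None of the 10 members passed in CM either, where 0.00661% of 15131 genes passed for late against early, 0% for 5w against early and 0.0198% for late against 5w, and in T, where 0%, 0.159% and 0.0969% of 11352 genes passed. At an unadjusted p under 0.05 there were 3, 1 and 1 members in CM, beside 9.13, 8.91 and 13.4% of all genes. In T there were 1, 0 and 1, beside 12.8, 10.8 and 15.7%. DESeq2 called 0 members in each contrast of EC, CM and T, beside 94, 188 and 128 genes in EC, 175, 239 and 457 in CM and 151, 207 and 510.0 in T. In MP it called 0, 0 and 1 members, beside 5, 32 and 120.0 genes. Every stage difference below is therefore one that did not pass, unless a setting is named, and it is given by its values. Differences are on the log2 scale, each ± its standard error (SE). The labels call the mice separate individuals, so the spread is one between mice.

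Timp1, the secreted inhibitor most often associated with fibrosis, was the inhibitor with the widest range in fibroblasts. Its FB level was 30.4 and 66.7 in the 0w mice and 489 and 399 in the 2w mice. At 5w, where 3 mice had enough fibroblasts, it was 54.3, 283 and 42.9. At 8w it was 30.5, 686 and 346, and at 11w 716 and 2296. Both 11w mice and 2 of the 3 8w mice were above every 5w mouse, while 8w replicate 1, on plate E, was at the level of the 0w mice, so early and late overlap. The fitted log2 difference was 2.26 ± 0.71 (SE, 5 late against 4 early mice) with an unadjusted p of 0.00581 and an adjusted p of 0.404. Late against 5w it was 3.01 ± 0.83 (adjusted p = 0.386), and 5w against early -0.75 ± 0.77. DESeq2 called the late against 5w difference of Timp1 at 2.88 (adjusted p = 0.0375). Fitted without the filter on low counts, edgeR called both late differences of Timp1, with an adjusted p of 3.11e-05 against early and 2.29e-07 against 5w. The number of all genes called without that filter is not given here. Without both mice of plate E the late against early value was 2.59 ± 0.54 (adjusted p = 0.187). Within plate E, the only plate with mice of 2 stages, the 8w mouse had 30.5 and the 5w mouse 54.3.

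The level of Timp1 differed between the fibroblast subclusters that the authors defined. Pooled over cells it was 1493 CPM in FB6, 690.3 in FB3 and 621 in FB7, and 54.6 in FB4 and 27.1 in FB1. FB6, FB3 and FB7 drew 78.8, 77.0 and 100.0% of their cells from late mice, and FB7 had 80.5% of its cells from 11w replicate 2. The subclusters were built on genes that may include Timp1, so this is a description. Stage and subcluster did not fully coincide. Within FB3 the 2w mice had 270.3 and 463 CPM, the 8w mice with at least 10 such cells 949 and 1192, and the 11w mice 1143 and 2519. Mice with fewer FB3 cells, an 8w mouse among them, are left out. Within FB4 the 0w mice had 30.1 and 58.2, a 2w mouse 139, a 5w mouse 55.3, the 8w mice 26.9 and 275 and an 11w mouse 83.0, which overlap. In FB6 1 mouse, 11w replicate 2, had 3190.1 CPM, against 21.1 to 514 in the other 3 mice with at least 10 cells.

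**Figure D2:**
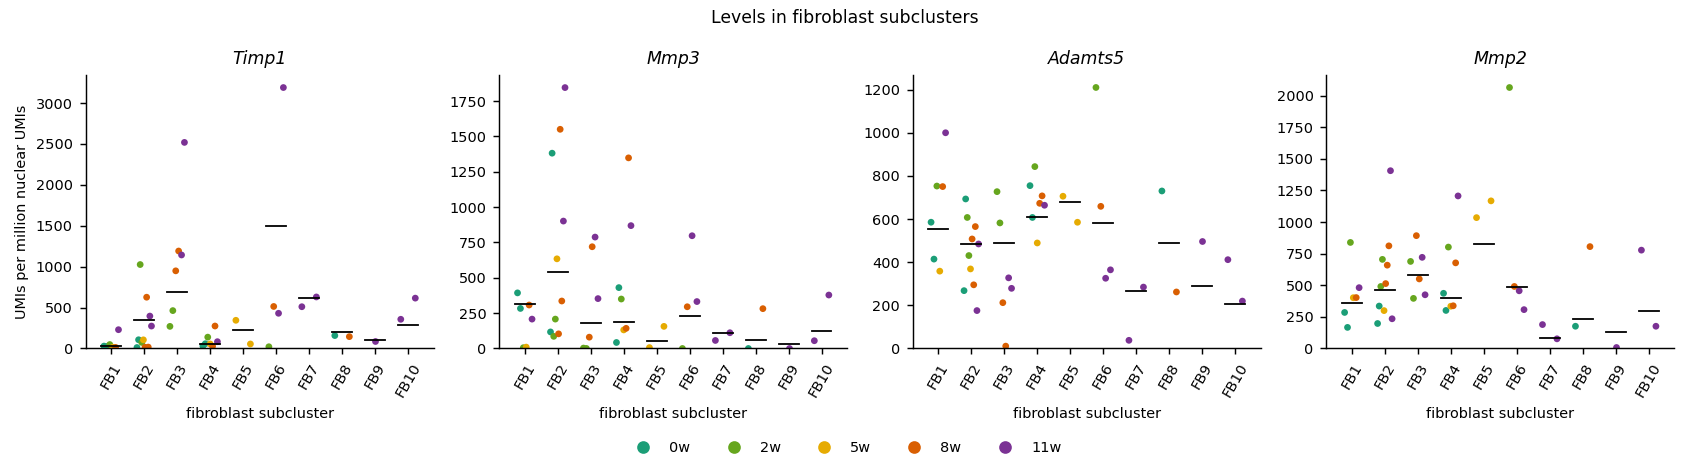
Level of Timp1, Mmp3, Adamts5 and Mmp2 (CPM) in the 10 fibroblast subclusters. Points are mice with at least 10 cells of the subcluster, coloured by stage, and bars are the level pooled over all cells of the subcluster. Timp1 reached 3190.1 in FB6 and was at most 275 in every mouse of FB1 and FB4.

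Outside fibroblasts, Timp1 was low, with medians over mice from 7.42 in MP to 20.3 in GN. In MP it was 9.03 or less in all 7 mice at 5w, and 44.1 and 193 in the 11w mice. In 4 of those 7 mice no UMI of Timp1 was found, and their totals allow up to 4.39, 8.23, 20.2 and 15.6 CPM. Late against 5w in MP its log2 difference was 3.78 ± 1.07 (adjusted p = 0.327), which DESeq2 called (adjusted p = 0.0377), and without 8w replicate 2 it was 2.502 ± 1.12 (adjusted p = 0.490). All 7 FB markers had a difference above 0 in MP for the same contrast, with a median of 1.15 beside -0.08 for all genes. Their summed level there ran from 41.7 to 3071 CPM at 5w and from 409 to 2982 late, and their part in the Timp1 values was not tested. In EC it was 12.4 to 83.5 in the 4 early mice, and it was not found in 3 of the 4 mice at 5w, whose totals allow up to 12.02, 47.2 and 12.03 CPM, so that an absence was not detectable at this depth. In CM its late against 5w difference was 2.33 ± 0.81 (adjusted p = 0.281). Without the filter edgeR called this at 2.32 (adjusted p = 0.0141), a setting whose count over all genes is not given here. The value turned to -0.44 ± 1.05 with a replicate block, and whether the numbers pair the mice is not known. FB markers differed by CM subcluster along with it. CM4, in which Timp1 was highest among CM subclusters at 185 CPM, also had the highest summed FB markers of them at 7643, against 228 to 4862 in the other 10 subclusters, and the part of fibroblast RNA in this level was not tested.

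Timp2, which inhibits metalloproteinases and also takes part in the activation of pro-MMP2, was present in FB at all stages. The 4 early mice had 491, 536, 476 and 721 CPM, the 5w mice 616, 954 and 1448, and the late mice 624.9, 494, 292, 603 and 475. The 5w mice of plate F, replicates 2 and 3, were above all others. Late against 5w the log2 difference of Timp2 was -0.78 ± 0.34 (adjusted p = 0.473), and without 5w replicate 3 it was -0.32 ± 0.33. In EC the early mice had 81.6, 102, 141 and 66.6 CPM of Timp2 and the 5w mice 135, 276, 598 and 248.7, which overlap, with a log2 difference of 1.35 ± 0.64 (adjusted p = 0.439). Macrophages were the type with the next highest median after FB, 238. Among subclusters outside FB, EC8 had the most Timp2, 728 CPM.

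Timp3 encodes the matrix-bound inhibitor. Its EC level was 242 and 293 in the 0w mice, 132 and 84.0 in the 2w mice and 429, 429, 330.4 and 245 in the 5w mice. The 8w mice had 263, 108 and 177, and the 11w mice 202 and 136. Both 2w mice were below all 4 mice at 5w, and no Timp3 contrast in EC reached an unadjusted p under 0.05. In CM the late mice had 136, 30.4, 21.5, 114 and 39.2 against 42.96, 43.9, 23.0 and 19.0 in the early mice, with a log2 difference of 1.52 ± 0.54 (adjusted p = 0.439). The 2 late CM mice that stand out are 8w replicate 1 and 11w replicate 1, and the difference was 0.79 ± 0.51 without plates G, H and K and 0.53 ± 0.47 with cells thinned to 2000 UMIs. Without both mice of plate E it was 1.07 ± 0.36.

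Timp4, an inhibitor known for its high expression in the heart, had its highest level in endothelial cells here. Its EC level was 823 and 786 in the 0w mice, 213 and 195 in the 2w mice and 254, 16.03, 78.7 and 381 in the 5w mice. The 8w mice had 383, 8.69 and 9.10, and the 11w mice 87.9 and 30.0. Both 0w mice were above all 11 others, and 4 of the 5 late mice were below all early mice, the exception being 8w replicate 1 of plate E. The log2 difference of late against early was -2.22 ± 0.83 (adjusted p = 0.327). Without both mice of plate E, a setting chosen after seeing the data, it was -4.00 ± 0.78. This value passed the threshold (adjusted p = 0.0412), and the count of all genes called in that setting is not given here. Without 8w replicate 1 alone it was -4.04 ± 0.78 (adjusted p = 0.0515). With 0w alone as the early group it was -3.06 ± 0.95 (adjusted p = 0.124). The summed EC markers ran from 8352 to 12061 CPM in the early EC mice, from 2709 to 8337 at 5w and from 3394 to 10748 late, with 8w replicate 1 again the highest late mouse, and their part in the Timp4 values was not tested.

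Endothelial subclusters differed widely in Timp4. It was 593 CPM in EC4, 583 in EC1 and 5.33 in EC9, the last with 6.74% of cells holding a UMI. EC9 made up 32.2% of the late endothelial cells and 3.50% of the early ones, and EC1 made up 35.3% of the early cells and 0.493% of the late ones. Within EC4, which holds cells of all stages, the 0w mice were again the highest. The level there was 1297 and 1039 at 0w, 82.3 and 28.6 at 2w, 253 in the 5w mouse, 277 in the 8w mouse and 43.8 in the 11w mouse. In EC5 0w replicate 1 had 1421 and 0w replicate 2 had 315, while 11w replicate 1 had 557, so 0w and 11w overlap there. In FB, too, the 0w mice had the most Timp4, 81.6 and 77.2 CPM, against 1.53 to 47.1 in the other 10 mice. Among FB subclusters it was highest in FB1, at 175 CPM, and FB1 also had the highest summed EC markers of the FB subclusters, 3682 against 319 to 606 in the others. In MP the 0w mice had 90.1 and 123 and the other 14 mice 0 to 68.6. In T the early mice had 21.2, 56.6, 10.3 and 1.48 CPM of Timp4 and 8w replicate 1 had 5.95. The other 3 late T mice held no UMI of it, which at their depth allows up to 14.5, 21.3 and 5.01 CPM, so no fold is given.

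**Figure D3:**
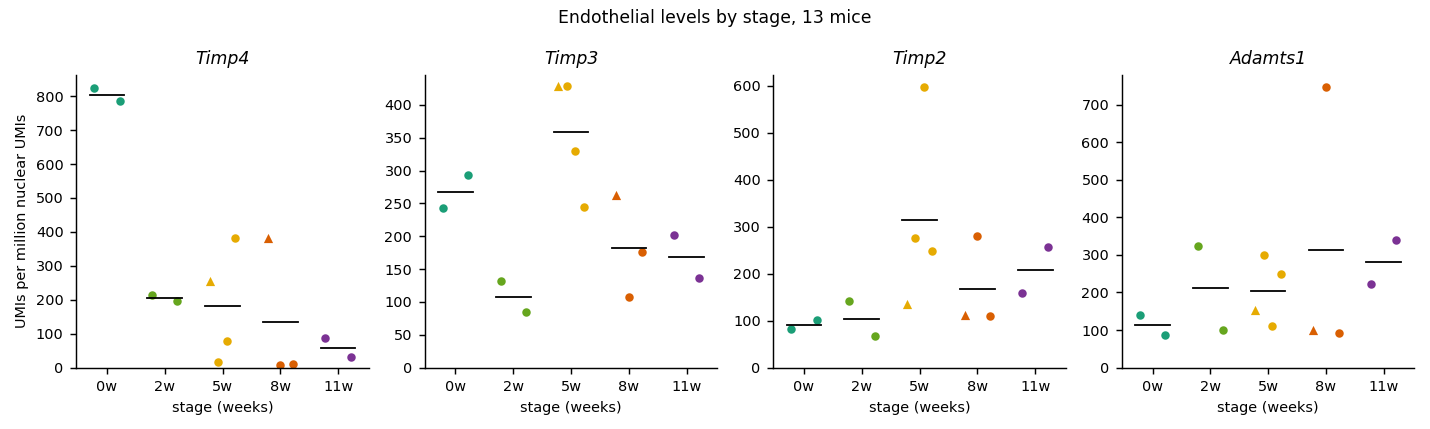
Level of Timp4, Timp3, Timp2 and Adamts1 in endothelial cells (CPM) by stage in weeks. Points are 13 mice with at least 10 EC, triangles are the 2 mice of plate E, and bars are stage means. Timp4 is at 823 and 786 in the 0w mice and at or below 383 in every other mouse.

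Mmp3, the stromelysin gene, was concentrated in fibroblasts and differed several-fold between mice of one stage. Its FB level was 158 and 627 in the 0w mice and 107 and 39.3 in the 2w mice. The 5w mice had 195, 4.96 and 169, the 8w mice 155, 467 and 336, and the 11w mice 714 and 515. Of the late mice, 4 of 5 lay above all 5w mice, and 8w replicate 1 lay among them. The log2 difference of late against 5w was 1.91 ± 0.82 (adjusted p = 0.468). It was called without the filter on low counts (adjusted p = 0.0235), a setting whose count over all genes is not given here. With cells thinned to 2000 UMIs it was 1.09 ± 0.74, and without both mice of plate E 2.56 ± 1.04. Late against early it was 1.29 ± 0.71. Outside FB, where the medians of Mmp3 were at most 18.8 CPM, it differed by 2.33 ± 1.13 in EC late against early (adjusted p = 0.536) and by 2.84 ± 1.39 in MP at 5w against early (adjusted p = 0.748). In MP only 5w replicates 1 and 3, at 44.8 and 76.3, were found above the early mice, at 0.39 to 5.15. All 67 UMIs of replicate 3 came from 1 of its 33 cells. Replicate 6 had 2.96, and the remaining 5w MP mice held no UMI, where depth allows up to 4.39 to 20.2 CPM. The MP groups thus overlap. By subcluster Mmp3 was highest in FB2 at 542 CPM, where mice ran from 85.9 to 1846.

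Mmp2, the gelatinase A gene, had FB levels of 275 and 336 in the 0w mice and 672 and 468 in the 2w mice. The 5w mice had 324, 861 and 1019, the 8w mice 365, 780.2 and 478, and the 11w mice 728 and 264. The 2 mice of plate E, at 324 and 365, were the lowest of their stages. Its log2 differences in FB were 0.18 ± 0.37 late against early, 0.45 ± 0.41 for 5w against early and -0.27 ± 0.39 late against 5w. Mmp14, the membrane-type activator of pro-MMP2, ran from 44.0 to 160 CPM over the 12 FB mice, and its 3 FB differences were between 0.02 and 0.04 with SEs from 0.48 to 0.54. Its late against early log2 difference in CM was 1.92 ± 0.87 (adjusted p = 0.535), with 86.3 and 105 in the 2 mice of plate E and 5.01 to 45.8 in the other 12 CM mice. Without both of them it was 1.29 ± 0.60. In EC the same 3 shallow 5w mice as for Timp1 held no UMI of Mmp14, and the remaining 5w mouse, replicate 1 of plate E, had 10.5 CPM. The 5w against early difference there, -3.57 ± 1.36 (adjusted p = 0.365), thus rests on that mouse, and without it no fold can be read.

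**Figure D4:**
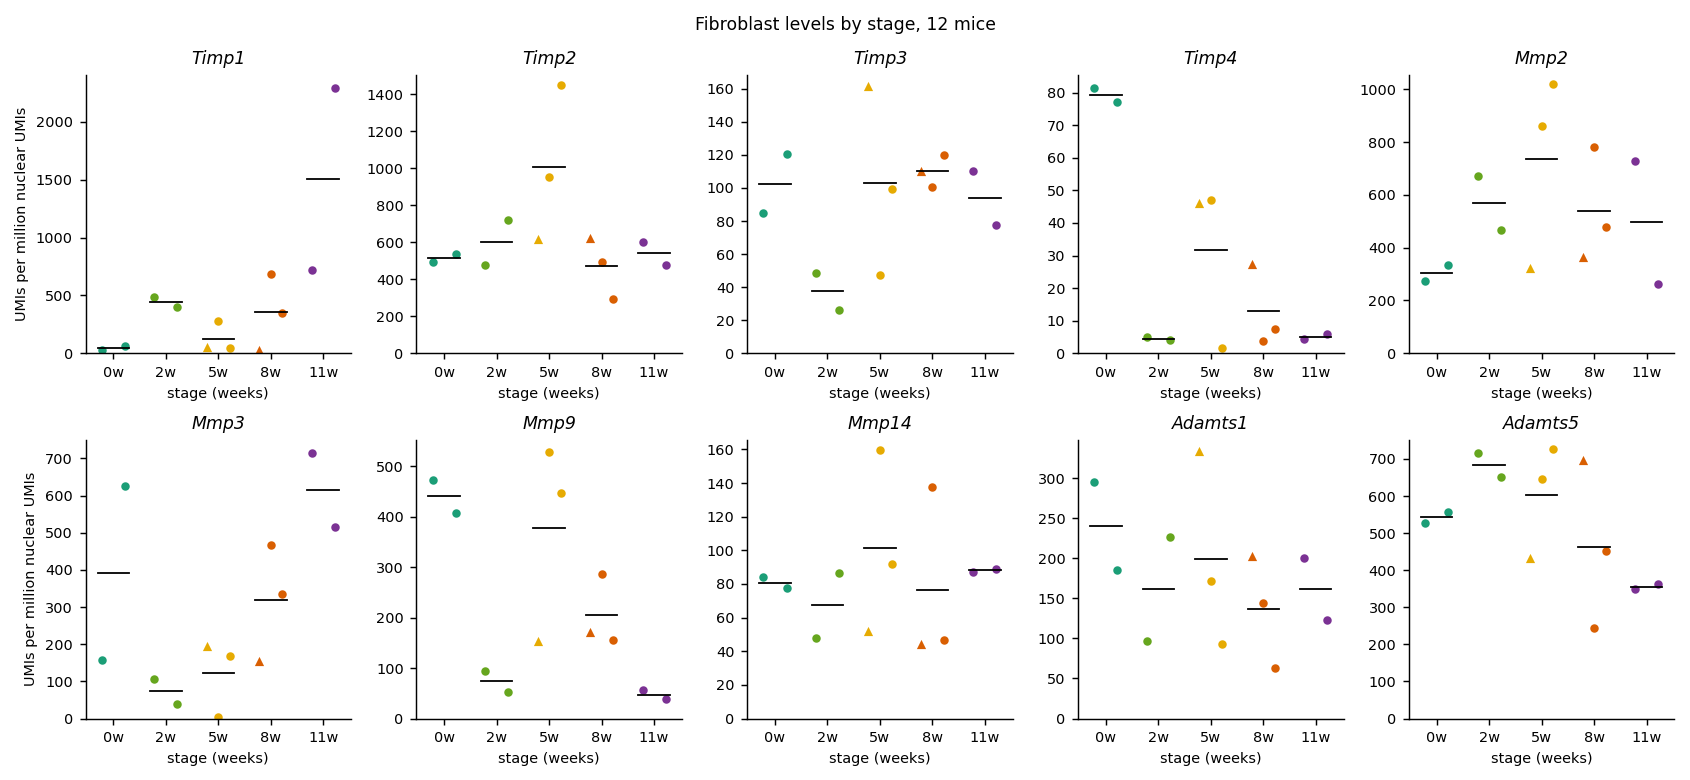
Fibroblast level of each member (CPM) by stage in weeks. Points are the 12 mice with at least 10 FB, triangles are the 2 mice of plate E, and bars are stage means. Timp1 is at 716 and 2296 at 11w and at 30.4 and 66.7 at 0w, and Timp4 is highest at 0w.

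Mmp9, the gelatinase B gene, differed less between the cell types of a plate than any other member. A UMI of it was found in 47.2% of EC, 28.8% of FB and 27.8% of CM after thinning to 2000 UMIs, and in 50.3% of GN, the type with the neutrophil markers. Mmp8, a neutrophil collagenase, was at 405 CPM in GN and at most 0.696 in the other types. Plates F, I, J, K and L held at least 10 GN. There GN averaged 21.3, 10.5, 4.4, 2.52 and 0.706 UMIs of Mmp9 per cell. The highest other type with at least 10 cells had 16.8, 10.4, 1.89, 1.52 and 0.516. Within GN, Mmp9 was 154 CPM in GN0, 413 in GN1 and 923 in GN2. Neutrophil markers summed to 6657, 15050 and 70207 there. The part of the plates in these GN subcluster values was not tested. UMIs of Mmp9 per cell differed more between plates than between types. They averaged 19.6 on plate B and 2.37 on plate A, both from the 0w mice, and 0.508 on plate L and 1.27 on plate K, both from the 11w mice. Within a plate the highest and the lowest cell type differed by a median of 1.53 times, and within a cell type the highest and lowest plate by a median of 37.8 times. For the other 9 members the first ratio ran from 12.5 for Timp4 to 82.0 for Mmp3, leaving out plates on which a type was at 0. With such plates kept, as in the ratios over all genes below, it was 17.7 for Timp2 and had no finite value for Timp4 and Mmp3.

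Among the 4166 nuclear genes with a mean of at least 1 UMI per cell, the median ratio of the highest to the lowest type within a plate was 8.76, and that of the highest to the lowest plate within a type was 39.8. The plate ratio of Mmp9 was thus near that of the median gene, and its type ratio was the lower one. Only Lrp5, at 1.47, and Gm13340, at 1.51, had ratios as low as that of Mmp9. Gm13340 averaged 2111 UMIs per cell, with a plate ratio of 31.5, and counts among the nuclear UMIs on which CPM rests. Lrp5 encodes a Wnt co-receptor. It was also the gene whose FB levels followed Mmp9 most closely, with a Pearson r of 0.98 over the 12 mice. Lrp5 CPM in FB was 722 and 598 at 0w and 113 and 101 at 11w, where Mmp9 was 473 and 408, and 56.1 and 39.2. The part of the plates in the stage values of Mmp9 was not tested. In FB it was 94.4 and 52.6 at 2w, 155, 528 and 448 at 5w and 172, 286 and 156 at 8w. Its log2 difference of late against 5w in FB was -1.64 ± 0.39 (unadjusted p = 0.000652, adjusted p = 0.386), called by DESeq2 at -1.79 (adjusted p = 0.0277). Without both mice of plate E it was -1.99 ± 0.36 (adjusted p = 0.0504). In EC it was -1.25 ± 0.58, in MP -1.39 ± 0.57 and in T -1.28 ± 0.62 for the same contrast. Without 5w replicate 3 the value was -0.42 ± 0.53 in EC and -0.70 ± 0.73 in T. In T the Mmp9 values stand beside CM markers of which 1 of 7 passed as higher late than at 5w. In CM the 5w against early difference of Mmp9 was 1.74 ± 0.59 (adjusted p = 0.414), and without plates G, H and K it was 2.79 ± 0.62. In the latter fit 5w replicate 1 of plate E is the only 5w mouse and is assumed to vary like the mice of the other groups. Without both mice of plate E the difference was 1.18 ± 0.41.

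**Figure D5:**
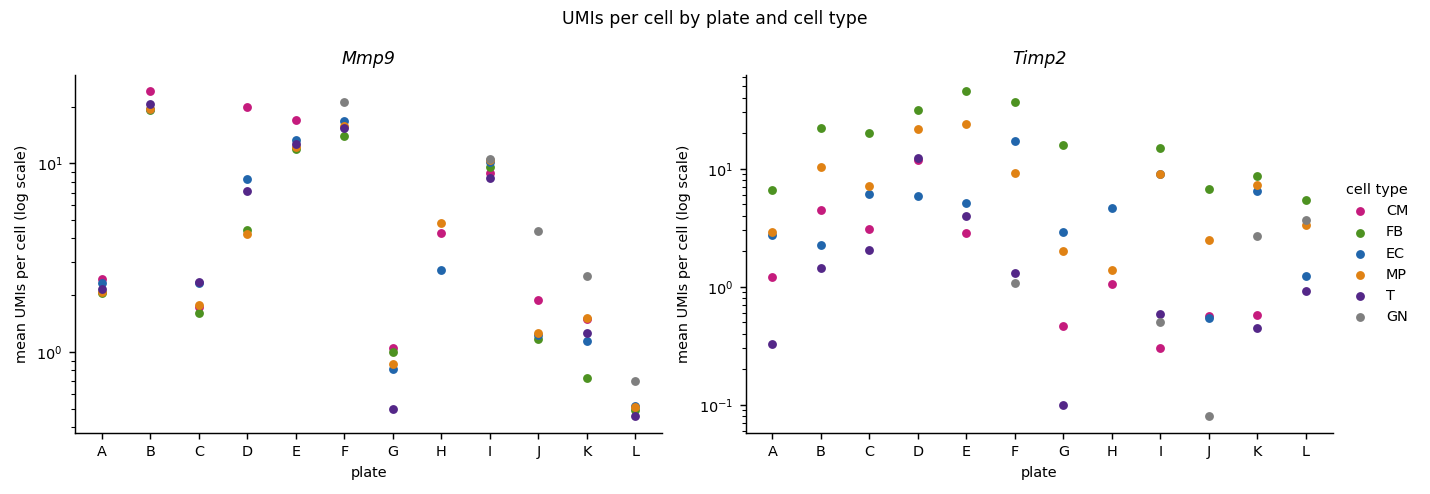
Mean UMIs per cell (log scale) of Mmp9 and, for comparison, Timp2 by plate and authors' cell type. Points are cell types with at least 10 cells on the plate. Mmp9 differs between plates and lies close together for the types of most plates (median ratio 1.53), plate D being wider at 4.25 to 19.8 UMIs per cell, while Timp2 spreads by type on each plate (median ratio 17.7).

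For the ADAMTS genes the early and late mice overlapped in FB. Adamts5, an aggrecanase, had FB levels of 528 and 557 in the 0w mice and 716 and 650.1 in the 2w mice. The 5w mice had 434, 647 and 727, the 8w mice 697, 243 and 450.5, and the 11w mice 348 and 363. Of the late mice, 4 of 5 were below all early mice, and 8w replicate 1 was not. The log2 difference of late against early was -0.69 ± 0.31 (adjusted p = 0.491), -0.26 ± 0.29 with cells thinned to 2000 UMIs and -0.82 ± 0.27 without both mice of plate E. Adamts1 ran from 62.8 to 334 in FB, where its late against early difference was -0.55 ± 0.46, and from 87.6 to 748 in EC, where it was 1.00 ± 0.65. In CM it was 0.79 ± 0.37 (adjusted p = 0.543), and -1.35 ± 1.61 in the plates with few myocytes and plate E only (B, D, E, F, I and L). Adamts1 and Adamts5 are neighbours on chromosome 16 (85793827 to 85803113 and 85856173 to 85901828, GRCm38, both on the minus strand).

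Whether the late against early difference itself varied between cell types was tested in a fit over FB, EC, CM and MP with the mouse as a block. None of the 10 members passed for FB against EC, CM or MP, and the share of all 19082 genes called was 0% in each. Timp1 differed by 1.70 ± 1.07 for FB minus EC (adjusted p = 0.924) and by 0.87 ± 1.03 for FB minus MP. Timp4 differed by 1.60 ± 1.33 for FB minus EC. The smallest p of the members was that of Mmp9 for FB minus CM, -1.87 ± 0.51 (unadjusted p = 0.000722, adjusted p = 0.627). No stage difference is thus shown to be particular to one cell type.

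Several subclusters outside FB held the genes that fibroblasts lead. Over the 37 such subclusters, log2 levels went with the log2 sum of FB markers at a Pearson r of 0.81 for Mmp3, 0.70 for Timp1, 0.65 for Mmp2 and Mmp14 and 0.60 for Adamts5. For Timp2, which FB also leads, r was 0.52, and for Adamts1 0.36. The levels of Timp3, Timp4 and Adamts1 went more closely with summed EC markers, at 0.82, 0.78 and 0.59. Their values with FB markers were 0.30, 0.26 and 0.36. These are descriptions over subclusters that share mice and plates. MP8 combined 10540.0 CPM of FB markers with 5554 of MP markers, and it had 131 CPM of Mmp3, the most of any subcluster outside FB. Doublets were not called, and the part of doublets or of free RNA in these levels was not tested.

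Among genes whose FB levels were most like those of a member over the 12 mice, Timp1 had Postn, encoding the matricellular protein periostin, with a Pearson r of 0.94, Igfbp7 with 0.92 and Cilp, encoding a secreted matrix protein, with 0.90. Postn CPM was 105 and 192 in the 0w mice, 956 and 1314 in the 2w mice, 65.98, 482 and 168 in the 5w mice, 74.4, 1521 and 2113 in the 8w mice and 1195 and 2277 in the 11w mice. The 8w mouse at 74.4 is the plate E mouse that was also low in Timp1. Mmp3 had Angptl7 with an r of 0.94, and Timp2 had Wdr26 with 0.89. These were the highest values among 4058 genes and carry no test.

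The other genes of the system were taken from lists. Of the other metalloproteinase genes, 9 of 19 could be tested in FB, and edgeR called 0 in any contrast. The same holds for 19 of 22 other ADAMTS and ADAMTS-like genes, 10 of 10 ADAM sheddases, 16 of 20 activators and regulators and 20 of 21 matrix substrates in FB. At an unadjusted p under 0.05, for late against early, 5w against early and late against 5w, there were 1, 1 and 1 other metalloproteinases, 1, 2 and 2 ADAMTS genes, 1, 0 and 0 sheddases, 4, 1 and 3 regulators and 7, 0 and 7 substrates, beside the shares of all FB genes given above (9.84, 12.2 and 9.85%). Median log2 differences of late against early were -0.24 for the substrates, 0.24 for the regulators and -0.15 for the other ADAMTS genes, beside -0.01 for all genes tested. In CM 1 of the 19 matrix substrates tested passed, in the late against 5w contrast. Postn was higher late than at 5w by 2.82 ± 0.39 (adjusted p = 0.0176), and the median of those 19 was 0.39 beside -0.07 for all genes. Across types, Mmp12 and Mmp13 stood highest in MP, at 40.2 and 40.01 CPM, and Mmp23 in FB at 155.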

How the data were processed

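Single cells of the left ventricle of 16 male TAC mice were analysed from the authors' annotation of cells and their deposited table of UMI counts, whole numbers that were not normalized. The submitters' processing notes name the tools Subread 1.4.6-p1, featureCounts and STAR 2.5.2b and the builds GRCh37 and mm10. What is not given in the sources used here is the annotation, whether strand was used, and how UMIs were collapsed. Per the labels' protocols, tissue was digested either with protease and collagenase for myocytes or with papain for other cells, which can affect shares and levels. For each mouse and cell type with at least 10 cells the UMIs were added up, leaving out the 34 mitochondrially encoded genes, which took 56.0% of UMIs, and 3 cells with no type. The number of value columns with no mouse was 0. Mice gave 113 to 1269 cells and 2844451 to 58650318 nuclear UMIs. The number of mice fitted was 16 in MP, 14 in CM, 13 in EC, 12 in FB and 11 in T. GN was only described.

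Sums were tested with edgeR 4.0.16 (TMM scaling after filterByExpr, then the two-sided quasi-likelihood F-test with robust fitting) under R 4.3.3, over all stages without covariates, with Benjamini-Hochberg adjustment over all genes and a threshold of 0.05. With late as the average of the 8w and 11w means and early as that of the 0w and 2w means, the contrasts were late against early, 5w against early and late against 5w. Tested on simulated data for FB late against early with 14505 genes, the procedure called 26% of genes changed 4-fold and 78% of those changed 16-fold, with 5 false calls. Alternatives were other scaling, filters, DESeq2 1.42.0, cell minimums, a replicate block, left-out mice, thinning and, chosen after seeing the data, left-out plates. Levels and thinning used Python 3.11.15 with numpy 2.4.6. All 10 members are named in every type. From other lists, genes that passed were to be named, and for each member whose mean log2 CPM in FB reached 5 the 3 genes most like it by Pearson r; the text gives those of Timp1 and the first of Timp2, Mmp3 and Mmp9, and departs from the rule for Mmp8, Mmp12, Mmp13 and Mmp23, named after their levels were seen. The members, lists and tests were chosen with earlier results of these data known.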

Additional observations from a re-analysis of the deposited data

Results flagged for a closer look

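In 30 stage groups of 4 to 10 mice (5w in CM, EC and MP), 5 held a mouse farther from the others than Dixon's 95% limit allows. That limit assumes independent normal values, which counts with many zeros from the same few mice are not. Levels are in CPM. In 4 of the 5 flagged groups the mouse was 5w replicate 1 of plate E. Mmp14 in CM was 86.3, from 80 UMIs in 2 of 54 cells, against 18.2 in the next of 5 mice. In EC Mmp14 was 10.5 and Timp1 7.22, with 0 in the other 3 mice, whose depth allows up to 12.02 to 47.2 CPM. With 3 of 4 mice at 0 the limit is passed whatever the fourth value, so the EC flags carry no test. In MP this mouse had 122 for Adamts1, against 21.96 in the next of 7 mice. The remaining one is 5w replicate 3 in MP, with 291 for Adamts5 against 76.2 in the next mouse.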

How the results depend on the processing

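Of the 27 member fold changes with an unadjusted p under 0.05, 682 values under alternatives were computed, of which 671 kept their direction and their side of the threshold, 9 passed it and 2 turned. The number of members called, 0 in every type and contrast, became 1 in CM for 5w against early without plates G, H and K (a fit with 1 mouse at 5w, assumed to vary like the other groups), 1 in CM for late against 5w without the filter on low counts, and 1 in EC for late against early without both mice of plate E. In FB it became 2 for late against 5w with DESeq2, beside 214 genes in all, and 2 without the filter (Timp1 at 3.04 and Mmp3 at 1.93). For late against early in FB it became 1 without the filter (Timp1 at 2.28). In MP it became 1 for late against 5w with DESeq2 (Timp1 at 3.61), beside 120 genes in all. Counts over all genes are not given here for the settings without the filter or with plates left out. The member counts of those settings are thus not set against a background. The log2 difference of Adamts1 in CM, late against early, was -1.35 in the myocyte-poor plates and plate E only. The cause was not tested. Leaving out 1 mouse at a time called 0 members in any type, and Timp1 in FB ranged from 1.65 to 2.63 against early and from 2.33 to 4.03 against 5w.

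The deviations of same-numbered mice of different stages correlated at 0.208 at most, the highest being the mice of plate E. In stages of 2 mice the deviations mirror each other, and differently numbered mice were not compared. The check thus cannot tell whether the replicate numbers pair the mice. With the replicate block 0 members were called, Timp1 in CM, late against 5w, turned to -0.44 ± 1.05, and Timp1 in FB was 1.82 against early. With the block the genes called in CM went from 0 to 364 for 5w against early. Depth limits the EC values at 5w, where 3 of the 4 mice had 63559 to 249561 nuclear UMIs, and the late T values, where 2 of the 4 mice had 141121 and 207428.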
